A study of Mus musculus with 4 samples.

Results

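The splice junctions described here are those that the authors' junction tables mark as putative, not known, and that carried at least 2 reads in each of the 4 libraries. The tables list 1921627 junctions, of which 1734753 are putative, and 64334 putative junctions had a read in at least 1 library. Of these, 1076 junctions in 869 genes met the rule. Genes whose symbol begins with Speer were to be left out, but no junction of theirs reached 2 reads in all libraries. The members were thus chosen by their read counts, and a junction found only in 1 genotype could not become a member.

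The libraries were made from the RNA of fetal liver cells of mice. The WT group is 2 libraries labelled wild type and the KO group is 2 libraries labelled hnRNP L -/-. The labels do not say whether the 2 libraries of a group come from different mice. hnRNP L is an RNA-binding protein that prefers CA-rich RNA and can promote or repress the use of nearby exons. The protocols name C57BL/6, LckCre transgenic, ROSA26 tdTomato/EGFP reporter and CD45.1 mice for the study as a whole. The sources used here do not say which of these alleles the sampled mice carried, how the gene was deleted or how old the embryos were. Each group is small and the labels give no litter, so a p-value covers only the spread among these 4 libraries, which may be technical. Read counts below are given in the order WT replicate 1, WT replicate 2, KO replicate 1 and KO replicate 2.

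Reads on known junctions numbered 4875332, 8624429, 7150406 and 6941562, and WT replicate 1 was the shallowest library. Hnrnpl itself stood at 458, 601, 279 and 268 counts per 1000000 reads on transcripts (CPM), a log2 fold change of -0.95 (edgeR quasi-likelihood test, adjusted p = 0.0115). No member lay in Hnrnpl or in its paralog Hnrpll. RNA levels of markers of several cell types also differed between the genotypes. Summed erythroid markers stood at 30667 and 27335 CPM in WT and 17026 and 13269 CPM in KO, and 3 of the 4 genes tested fell. Summed hepatocyte markers stood at 45210 and 32279 CPM in WT against 65669 and 55371 CPM in KO, and none of these 4 genes passed the test. Markers of cardiac muscle reached 228 CPM in WT replicate 2 and 33.2 CPM in WT replicate 1, against 2.71 and 5.02 CPM in the KO libraries. In such bulk samples, fewer cells of a type and less RNA per cell cannot be told apart, and the part of these shifts in the junction results below was not tested.

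A splice junction is the seam left where an intron is removed and an upstream exon is joined to a downstream exon. When an internal exon is left out, the junction joins its neighbours directly, so a skipped exon leaves a junction with a longer span across the gene. If the length of a skipped coding exon is a multiple of 3, the reading frame continues behind the seam. Skipping is the most frequent form of alternative splicing in mammals, and hnRNP L, MBNL and PTB proteins are among its regulators. Very short exons, often called microexons, are mostly included in neurons and left out elsewhere.

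The sequences that the results turn on are shown first. They are from the mouse transcripts of GENCODE M21, located by the lengths of the exons and introns around each junction, because no source used here names the build of the deposited coordinates. In the first set, the last 20 bases of the upstream exon are in lower case and the first 20 bases of the downstream exon are in capitals, so the change of case is the seam. The set holds the junction with most reads, both junctions of fibronectin, 3 further junctions that skip several exons, those with the smallest p in the comparison of genotypes, and examples from genes of repeated sequence.
Drosha, 20 exons skipped: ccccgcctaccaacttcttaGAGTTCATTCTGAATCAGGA
Fn1, exon of 270 bases skipped: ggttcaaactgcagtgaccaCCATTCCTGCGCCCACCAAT
Fn1, exon of 273 bases skipped: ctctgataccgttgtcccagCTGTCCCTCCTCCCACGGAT
Epb4.1, 2 exons skipped: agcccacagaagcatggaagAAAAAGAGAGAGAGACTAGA
Prpf8, 15 exons skipped: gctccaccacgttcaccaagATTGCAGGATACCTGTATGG
Faf1, 5 exons skipped: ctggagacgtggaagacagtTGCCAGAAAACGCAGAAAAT
Mbnl1, 2 exons skipped: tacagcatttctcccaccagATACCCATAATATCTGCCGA
Flna, 24 exons skipped: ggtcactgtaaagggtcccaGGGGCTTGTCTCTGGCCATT
Neb, 18 exons skipped: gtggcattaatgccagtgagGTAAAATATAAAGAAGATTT
Col1a2, 25 exons skipped: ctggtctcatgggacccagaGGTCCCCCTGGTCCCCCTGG
Col3a1, 13 exons skipped: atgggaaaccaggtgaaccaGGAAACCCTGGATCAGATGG
In the second set, a short exon that a member leaves out is in capitals between the 10 bases before and after it. They are shown as the exons behind the single-exon members described below. The local share of each member, defined below, was over 60% for all of them but Mbnl1, where it was 12.2%.
Atm, 9 bases: gatatgccagTCTTTTCAGggtgaaagaa
Macf1, 12 bases: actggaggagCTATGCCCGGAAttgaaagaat
Spna2, 15 bases: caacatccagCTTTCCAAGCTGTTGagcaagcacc
Picalm, 24 bases: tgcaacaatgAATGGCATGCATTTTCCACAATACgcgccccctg
Ank1, 24 bases: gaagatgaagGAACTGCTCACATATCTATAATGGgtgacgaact
Cpeb4, 24 bases: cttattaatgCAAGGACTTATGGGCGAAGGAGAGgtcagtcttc
Mbnl1, 36 bases: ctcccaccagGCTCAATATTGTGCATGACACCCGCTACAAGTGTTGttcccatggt
Tpd52l2, 42 bases: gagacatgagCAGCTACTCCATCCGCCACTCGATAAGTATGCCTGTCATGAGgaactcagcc
Prmt1, 54 bases: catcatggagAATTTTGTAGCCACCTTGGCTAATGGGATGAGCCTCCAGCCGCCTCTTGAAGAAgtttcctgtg
Cd47, 63 bases: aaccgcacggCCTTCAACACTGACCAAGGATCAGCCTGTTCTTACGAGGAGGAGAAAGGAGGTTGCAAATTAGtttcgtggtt

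The members were for the most part junctions between known exon ends that skip a single exon. Both ends of 1069 members were ends of known junctions, and 7 members had a single known end. The exons between the ends could be counted for 1053 members. Of these, 613 (58.2%) skipped 1 exon, against 9.51% of all putative junctions listed. A further 107 skipped 2 to 3 exons, 134 skipped 4 to 9, and 199 (18.9%) skipped 10 or more, up to 157 exons in Ttn. Among all putative junctions 42.9% skipped 10 or more exons. The median distance between the joined ends was 7312 bases for the members, 1242 bases for known junctions with at least 2 reads in each library, and 17943 bases for all putative junctions listed.

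The authors' known set did not hold these junctions, but a later annotation holds many of them. An intron of the same length, anchored in the same way to a neighbouring intron of the same gene, was present in GENCODE M21 for 475 of the 1073 members whose gene it names (44.3%). The same match was found for 4.00% of the other putative junctions with a read, for 0.416% of a sample of putative junctions with 0 reads, and for 99.8% of a sample of known junctions. The listed share depended on the number of exons skipped. It was 68.2% for 1 exon, 39.3% for 2 to 3 exons and 3.73% for 4 to 9 exons, and none of the 199 junctions that skip 10 or more exons was listed. It also rose with the reads, from 30.1% of members with 8 to 19 reads over the libraries to 57.8% of those with 100 or more. The match rests on lengths, so a chance match of length is possible, and its rate was not measured. Junctions with 0 reads can also be true introns not used or not sampled here, so their share does not give that rate.

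**Figure D1:**
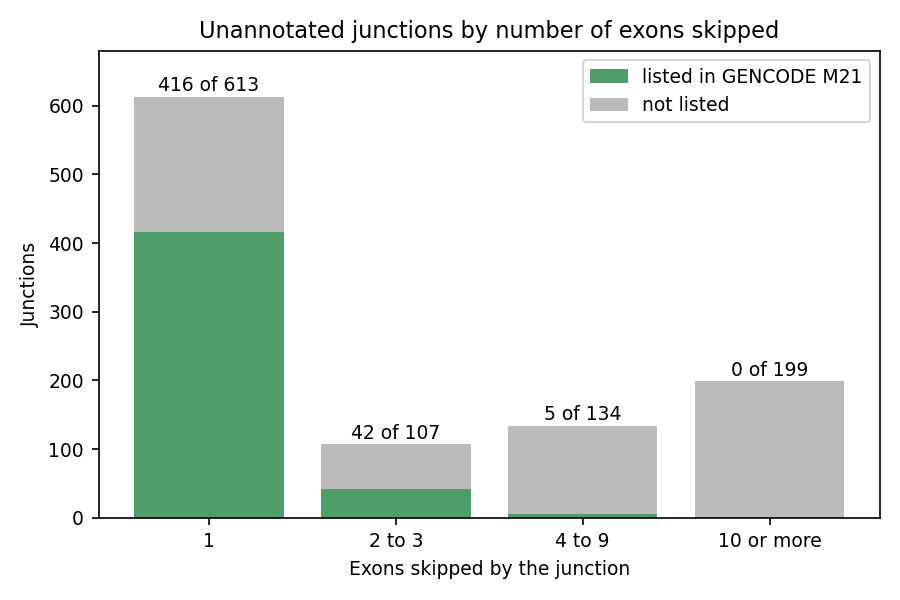
Number of recurrent unannotated junctions (vertical axis) by the number of exons each skips (horizontal axis), split into junctions listed in GENCODE M21 (green) and not listed (grey), with the listed number of the total above each bar. Of the 613 junctions that skip 1 exon 416 are listed, and of the 199 that skip 10 or more none is.

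Coding exons left out alone had a length that keeps the reading frame more often than the internal coding exons of the same genes as a whole, and this share was higher for junctions with more reads. Of 487 such exons, 281 (57.7%) had a length that is a multiple of 3, against 44.7% of the 15592 internal coding exons of the host genes. The share was 40.0% at 8 to 19 reads (95% Wilson interval 30.9% to 49.8%), 53% at 20 to 49 reads and 73.8% at 50 or more reads (66.8% to 79.8%). These intervals cover counting error only, and exons of 1 gene are not independent. The exons were also shorter, with a median of 100 bases against 121 bases. At up to 60 bases, 75% of the skipped exons were a multiple of 3 against 57.0% of all internal coding exons of that length. The 6-base motifs ACACAC and CACACA, which overlap each other and stand for CA-rich RNA, were found on the sense strand in 4.52% of the skipped exons and 5.64% of all internal coding exons, and on the other strand in 4.72% and 6.18%. These motifs were more frequent in longer exons, and the pooled shares do not match for length. In exons of up to 60 bases the sense-strand shares were 0% and 1.08%, and over 60 to 120 bases 3.47% and 3.79%. Over 120 to 200 bases they were 6.62% and 6.32%, and above 200 bases 14.6% and 13.0%. On the other strand the pairs were, in the same order, 0% and 1.14%, 2.97% and 4.26%, 8.82% and 7.44%, and 12.2% and 12.3%. Introns, where hnRNP L is also known to bind, were not analysed here.

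**Figure D2:**
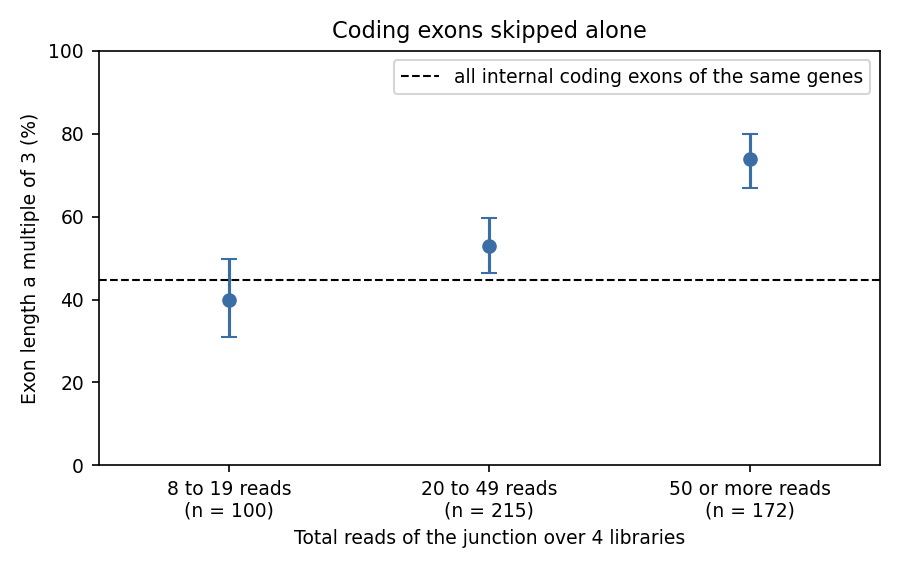
Share of coding exons skipped alone whose length is a multiple of 3 (vertical axis, %) by the total reads of the junction (horizontal axis, with the number of exons). Points are shares with 95% Wilson intervals, and the dashed line is the 44.7% of all internal coding exons of the host genes; the share is 40.0%, 53% and 73.8% from few to many reads.

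To set a member against annotated splicing, its reads were divided by the sum of its reads and those of all known junctions with the same start or end. This local share is a description, because the members were chosen by their reads. Skipping 1 exon gives 1 junction where inclusion gives 2, which makes a local share lower than the share of transcripts that skip. Reads on other putative junctions with the same start or end are not in the sum, which makes the local share higher where such junctions have reads. Over all members the median local share was 14.7%, with quartiles of 4.32% and 40.0%. In 214 members it was over 50%, in 82 it was under 1%, and for 53 members no known junction with the same start or end had a read. Listed members had a median of 23.4% and the others of 9.38%. Junctions that skip 10 or more exons had a median of 20.4%, against 14.3% for those that skip 1.

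**Figure D3:**
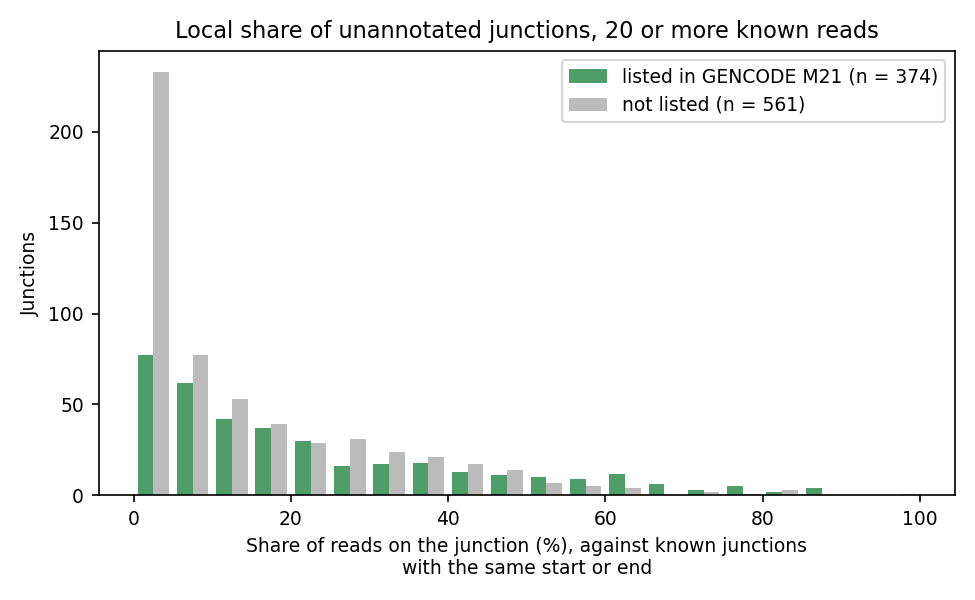
Number of junctions (vertical axis) by local share in % (horizontal axis, bins of 5 points) for the 935 members with at least 20 reads on known junctions of the same start or end. Most of the 561 junctions not listed in GENCODE M21 lie at the left, whereas the 374 listed ones reach further to the right.

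Reads were unevenly spread. The members held 87841 reads with a median of 34, and 166 members had 100 reads or more. The 12 genes at the top were Drosha, Cd47, Epb4.1, Picalm, Lamp1, Faf1, Fn1, Prpf8, Rrm1, Tpd52l2, Ddx6 and Prmt1, whose leading junctions held 28.9% of all member reads. The Drosha junction alone held 15.4%.

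Drosha encodes the nuclear nuclease that cuts primary transcripts of microRNAs. Its member, chr15:12789214-12855961 in the coordinates of the files, spans 66746 bases, skips 20 exons and 1995 bases, and is not listed in GENCODE M21. It had 5344, 4115, 2046 and 2054 reads. The known junctions with the same start had 74 reads in all and those with the same end 185, so the local share was 98.1% (Wilson interval 97.9% to 98.3%). It was 98.8% ± 0.644 in WT and 96.5% ± 1.79 in KO (SD, n = 2 each). The junction held 308 times the median of the known Drosha junctions, which was 44 reads. It also had more reads than the deposited transcript count of Drosha in WT replicates 1 and 2, where that count was 2196 and 4088, and fewer in the KO libraries, with 3006 and 3913. Only Rpl10, Cngb1 and Stra8 held other members with more reads over the 4 libraries than their transcript, a comparison made after the Drosha values were seen. The transcript counts hold only primary alignments with mapping quality of at least 10. The rules for junction reads are not given, so junction and transcript counts may not be directly comparable. The last 10 bases before the Drosha seam and the last 10 of the skipped stretch had 2 bases alike, and the first 10 after the seam and the first 10 of the skipped stretch had 3.

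Scaled to 1000000 known junction reads, the Drosha junction stood at 787 ± 438 in WT and 291 ± 6.90 in KO (SD, n = 2 each). Both WT libraries were above both KO libraries, but WT replicate 1 was far above WT replicate 2. The difference did not pass the test of junction levels (log2 fold change -1.49 ± 0.35 SE, edgeR adjusted p = 0.0799). Single libraries decided this call. Without WT replicate 1 the log2 fold change was -0.75 (edgeR adjusted p = 0.379), and without WT replicate 2 it was -2.02 (adjusted p = 1.3e-06). Without KO replicate 1 or 2 the edgeR adjusted p was 0.0197 and 0.0457. The transcript level of Drosha was 67.8, 73.4, 62.6 and 76.1 CPM, with a log2 fold change of -0.03. Relative to all junctions of the gene, the log2 fold change of the Drosha member was -0.29 ± 0.34 (SE, edgeR unadjusted p = 0.405). This member holds most of the junction reads of the gene itself, so that test cannot decide whether its use differed.

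Several other genes with few known reads also carried a dominant member that skips many exons. Neb, which encodes the giant muscle protein nebulin, had 79, 105, 75 and 60 reads on a junction that skips 18 exons. The known Neb junctions with a read had a median of 2 reads. In the same comparison of the ends, Neb had 7 and 9 of 10 bases alike. Ttn, for the muscle protein titin, had 25, 30, 9 and 7 reads on its junction over 157 exons, and the known Ttn junctions a median of 2. Cngb1, a subunit of cyclic nucleotide-gated channels, had 14, 29, 19 and 18 reads on a junction over 5 exons, while its transcript had 2, 6, 4 and 6 reads. The transcripts of Neb (99, 223, 126 and 242 reads) and Ttn (356, 4443, 173 and 908 reads) exceeded their junctions in every library. That of Ttn was highest in WT replicate 2, as were the cardiac markers given above. Across 1074 members in genes with known reads, the median ratio of a member to the median known junction of its gene was 0.376, 287 members were above 1 and 16 above 10.

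The next 3 members by reads skip 1 or 2 short exons in Cd47, Epb4.1 and Picalm. Cd47, the surface protein that marks a cell as self to macrophages, had 463, 1088, 438 and 499 reads on a junction (chr16:49868225-49884278) that leaves out 63 bases. Its local share was 65.2% and 71.6% in WT and 52.6% and 49.9% in KO. The groups did not overlap, which was so for 349 of the 1076 members (32.4%), with KO below WT in 17.8% and above it in 14.6%. In the usage test the log2 fold change of Cd47 was -0.25 ± 0.32 (SE, edgeR adjusted p = 1.00). The gene level of Cd47 fell, with a log2 fold change of -0.64 (edgeR adjusted p = 0.0302). Epb4.1 encodes protein 4.1R, which ties spectrin and actin to the red cell membrane, and had 473, 726, 462 and 491 reads on a junction that skips exons of 42 and 57 bases. Its local share was 63.3%, 59.3%, 48.6% and 55.4%, also without overlap, and its usage did not pass the test (log2 fold change -0.18 ± 0.32 SE, edgeR adjusted p = 1.00). A second Epb4.1 junction skips the exon of 42 bases alone and had 9, 16, 26 and 18 reads. Picalm, a clathrin assembly factor that serves transferrin receptor uptake, had 284, 547, 346 and 298 reads on a junction without an exon of 24 bases. Its local share of 87.1%, 85.1%, 88.5% and 84.2% overlapped between the groups.

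The other leading members fall into the same classes, single short exons and longer runs of exons. Prmt1 encodes the main arginine methyltransferase, and its member leaves out the exon of 54 bases shown above, with 140, 175, 129 and 161 reads and a local share of 79.0%. Tpd52l2, a member of the tumor protein D52 family, had 94, 258, 155 and 159 reads and a local share of 84.9% without its exon of 42 bases. Both junctions are listed in GENCODE M21. Among multi-exon skips, Faf1, an adaptor of ubiquitin-dependent degradation, had 185, 240, 185 and 204 reads over 5 exons with a local share of 70.5%. Ddx6, an RNA helicase of processing bodies, had 127, 202, 157 and 153 reads over 3 exons with a local share of 71.5%. Prpf8, the central protein of the spliceosome, had 85, 251, 193 and 187 reads over 15 exons with a local share of 47.2%. Rrm1, the large subunit of ribonucleotide reductase, had 147, 314, 111 and 128 reads over 5 exons with a local share of 14.1%. Lamp1, a lysosomal membrane protein, had 102, 237, 331 and 192 reads over 2 exons with a local share of 8.89%. None of these 5 multi-exon junctions is listed in GENCODE M21.

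**Figure D4:**
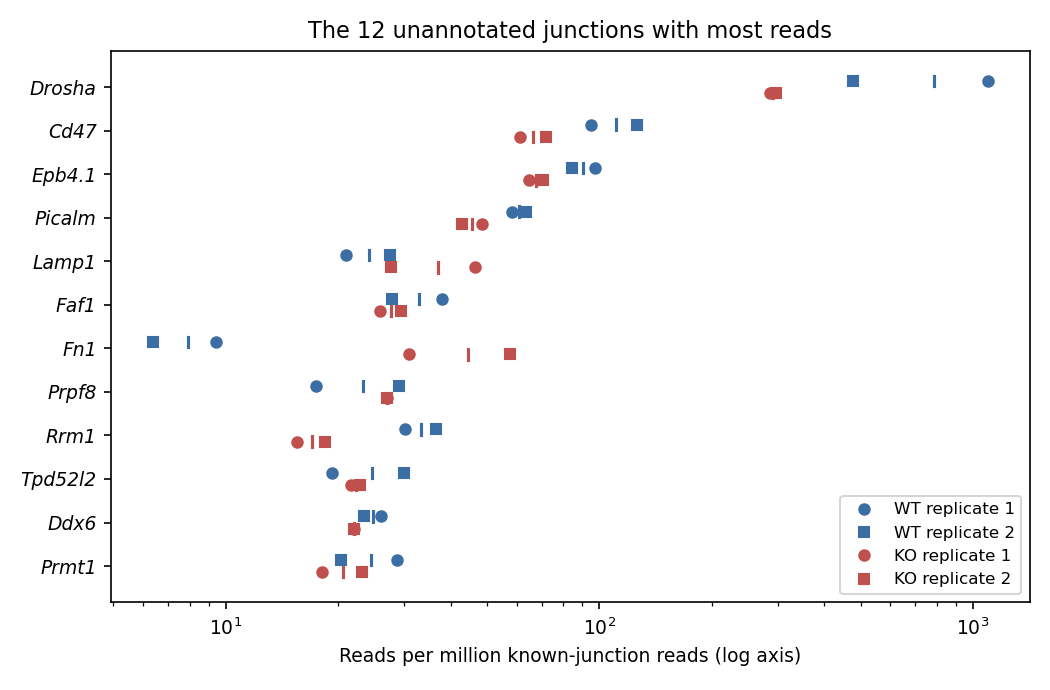
Reads per 1000000 known-junction reads (horizontal axis, log scale) of the 12 junctions with most reads, 1 per gene, in each library; circles and squares are the replicates, vertical ticks the mean of each group (n = 2). Drosha stands apart at 787 in WT and 291 in KO, and Fn1 is the gene with KO far above WT.

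Among members with at least 20 reads on the known junctions beside them, the highest local shares after Drosha were those of Ubn1 (88.9%), Slc16a7 (87.3%), Picalm (86.1%), Racgap1 (85.0%) and Tpd52l2 (84.9%). Ubn1 encodes a subunit of the HIRA histone chaperone complex, and its skipped exon has 114 bases. Slc16a7 is a monocarboxylate transporter, with a skipped exon of 81 bases. Racgap1 is a subunit of centralspindlin, which is needed for cell division, with 123, 171, 109 and 107 reads across an exon of 131 bases. All 3 are listed in GENCODE M21. In these genes most of the reads on the member and these known junctions thus lay on the junction marked as putative.

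Members that skip the shortest exons had high local shares. For 31 members in 30 genes the skipped coding exon had 27 bases or fewer, and the median local share of these junctions was 99.2%, against 11.2% for all 487 coding exons skipped alone. In 27 of the 31 the share was over 50%, and 29 of 31 exon lengths were a multiple of 3 (93.5%), against 72.8% of the 195 internal coding exons of that length in the host genes. The 31 were chosen by reads on the skipping junction, so they say nothing of the other short exons in these genes. No source used here names the aligner or how it treated reads across such short exons. Whether inclusion reads were lost in mapping, which would raise these shares, was not tested. The lowest shares were 7.59% in Mrpl33, 12.8% in Col18a1, 22% in Cfi and 47.1% in Immt. GENCODE M21 lists 26 of the 31. The exons belong to genes of several kinds. Ank1, the red cell ankyrin, had 78, 176, 80 and 54 reads without its exon of 24 bases and 3 reads on the known junctions at the site. Atm, the kinase of the response to DNA breaks, had 43, 85, 43 and 55 reads without an exon of 9 bases and none on known junctions of the same start or end. Macf1, a linker of actin and microtubules, had 25, 63, 43 and 88 reads without 12 bases, likewise with none on the known junctions. Zmynd8, a chromatin reader, had 90, 197, 136 and 90 reads without 12 bases. Spna2, the non-erythroid alpha spectrin, had 26, 25, 32 and 34 reads without 15 bases. Cpeb4, a regulator of translation, had 24, 74, 35 and 48 reads without 24 bases, and 35, 72, 34 and 60 reads on a junction that also leaves out the exon of 51 bases before it. Daam1, a formin that builds actin filaments, had 91, 181, 122 and 148 reads without 27 bases.

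The members whose level passed the test between the genotypes were both in the fibronectin gene. Fn1 encodes fibronectin, a matrix protein with the extra domains A and B in the form that tissues deposit, whereas the plasma form that hepatocytes secrete lacks both. The leading Fn1 member (chr1:71649071-71651544) leaves out an exon of 270 bases and had 46, 55, 221 and 401 reads. The second (chr1:71659224-71661934) leaves out an exon of 273 bases and had 9, 19, 69 and 71 reads. Scaled to 1000000 known junction reads, the first stood at 7.91 ± 2.16 in WT and 44.3 ± 19 in KO, and the second at 2.02 ± 0.252 and 9.94 ± 0.409 (SD, n = 2 each). In both, every KO library was above every WT library. The log2 fold changes were 2.44 ± 0.35 (SE, edgeR adjusted p = 0.00208) and 2.23 ± 0.45 (adjusted p = 0.0397). Of 503 members that passed the filter on low counts for this test 2 were called (0.398%), both higher in KO, beside 0.186% of all 72094 junctions tested and 0.147% called as higher.

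The gene as a whole rose too. Fn1 stood at 511, 559, 1544 and 1626 CPM, a log2 fold change of 1.57 ± 0.16 (SE, edgeR adjusted p = 0.00443). The local share of the junction without the exon of 270 bases was 55.4% and 67.1% in WT and 75.2% and 75.1% in KO. That of the junction without the exon of 273 bases was 20.5%, 33.9%, 25.2% and 21.1%, and the groups overlapped. Relative to all junctions of the gene, the log2 fold changes were 0.60 ± 0.38 and 0.39 ± 0.52 (SE), and neither passed the test (edgeR adjusted p = 1.00 for both). The call of the second junction was lost without KO replicate 1 (adjusted p = 0.0655). Markers of several cell types were higher in the same KO libraries. Both endothelial markers rose, with a sum of 166 and 193 CPM in WT and 294 and 330 CPM in KO, as did 2 of 3 megakaryocyte, 2 of 3 granulocyte and 1 of 2 stellate markers. The stellate marker that rose was Pdgfrb (log2 fold change 0.99, edgeR adjusted p = 0.00833). The other, Dcn, did not pass the test (log2 fold change 0.31, edgeR adjusted p = 0.126). Nor did Col1a1, Col1a2 and Col3a1 (log2 fold changes -0.16, -0.09 and 0.34). Summed macrophage markers stood at 165 and 123 CPM in WT and 89.0 and 67.7 CPM in KO. Of these 3 genes 1 was higher and 1 lower. Erythroid and cardiac markers, given above, were lower in KO. The hepatocyte marker Alb stood at 21360 and 14901 CPM in WT and 31203 and 24831 CPM in KO and did not pass the test (edgeR adjusted p = 0.137). The part of these cell types in the Fn1 values was not tested. The remaining Fn1 member, over 5 exons, had 2, 3, 6 and 4 reads.

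No difference by genotype in the use of the members relative to all junctions of their genes was detectable at this depth. Where a member holds most reads of its gene, as in Drosha, it is most of its own reference and a difference can hardly show. Usage was tested for 1052 members, and 0 were called by edgeR at an adjusted p of 0.05, beside 4 of 105433 junctions of all kinds (0.00379%) and 2 of 2102 putative junctions (0.0951%). At an unadjusted p under 0.05 there were 22 members (2.09%), 12 higher and 10 lower in KO, beside 2.43% of all junctions. The edgeR likelihood ratio test called 1 member, in the cardiac myosin gene Myh7 (adjusted p = 0.0312). That junction had 19, 12, 17 and 2 reads, and the cardiac markers given above were highest in WT replicate 2. The median log2 fold change of the members was -0.06 with quartiles of -0.52 and 0.41, and the median standard error was 0.889. The precision per junction was therefore low.

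The smallest p among the members were those of Flna and Mbnl1. Flna encodes filamin A, which crosslinks actin, and had 34, 17, 5 and 12 reads on a junction over 24 exons (log2 fold change -2.68 ± 0.61 SE, edgeR adjusted p = 0.465). Its local share was 13.0%, 4.47%, 0.921% and 1.79%, while the gene level rose (log2 fold change 0.71, edgeR adjusted p = 0.0185). Single libraries moved this value: it was -3.43 with WT replicate 2 left out (edgeR adjusted p = 0.00783), but -1.49 with WT replicate 1 left out (adjusted p = 1.00).

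Mbnl1 encodes muscleblind-like 1, an RNA-binding protein that regulates splicing during differentiation, including that of its own transcript. All 4 of its members are listed in GENCODE M21. The junction that leaves out exons of 36 and 95 bases (chr3:60419695-60429046) had 18, 28, 72 and 108 reads and a local share of 2.00% and 1.87% in WT and 5.28% and 6.78% in KO. The log2 fold change of its usage was 1.83 ± 0.43 SE (edgeR unadjusted p = 6.2e-05, adjusted p = 0.727), and both KO libraries were above both WT libraries. Its level had a log2 fold change of 1.83 (edgeR adjusted p = 0.0636). That call too rested on single libraries, with an edgeR adjusted p of 0.0296 and 0.0311 once replicate 1 of WT or of KO was omitted, and of 0.0733 and 0.339 once replicate 2 of WT or of KO was. The junction without the exon of 36 bases alone had 34, 33, 37 and 71 reads, and that without the exon of 95 bases alone had 6, 17, 21 and 24 reads. The fourth, without an exon of 1049 bases, had 26, 43, 32 and 21 reads. The Mbnl1 gene level was 467, 517, 402 and 459 CPM and did not pass the test (edgeR adjusted p = 0.364).

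**Figure D5:**
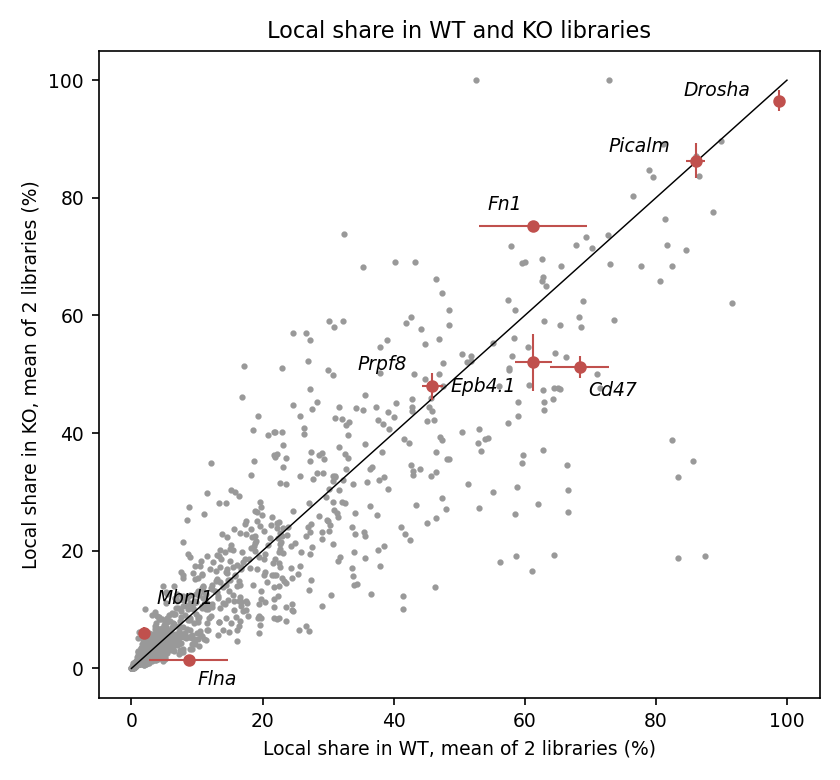
Local share in KO (vertical axis, %) against local share in WT (horizontal axis, %), means of 2 libraries, for the 935 members with at least 20 reads on known junctions of the same start or end; the line marks equal shares. Red points with SD bars are the leading members of 8 genes named in the text; Fn1 and Mbnl1 lie above the line, Cd47, Epb4.1 and Flna below it, and none passed the usage test.

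Summed over all members, reads per 1000000 known junction reads were 3974 and 3168 in WT and 2856 and 2986 in KO. The means were 3571 ± 570.0 and 2921 ± 92.4 (SD, n = 2 each), and an exact two-sided permutation test gave p = 0.33, the smallest that 2 against 2 libraries allow. Without Drosha the values were 2878 and 2691 in WT and 2570 and 2691 in KO. Junctions that skip 10 or more exons, again without Drosha, stood at 463 ± 28.9 in WT and 469 ± 38.8 in KO. Those that skip 1 exon stood at 1647 ± 82.2 and 1479 ± 33.1, with both WT libraries above both KO libraries (exact permutation p = 0.33). The pooled local share of all members was 1.43% ± 0.132 in WT and 1.15% ± 0.143 in KO.

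Most genes held a single member, and Col1a2, Alb, Col3a1 and Afp, all genes for secreted proteins, held the most. In 739 genes there was 1 member, in 94 there were 2, and Col1a2 and Alb had 11 each, Col3a1 and Afp 9 each. Picalm, Ubac1 and Pbrm1 followed with 5. Alb and Afp encode the main plasma proteins of the fetal liver. Their members skip 1 to 10 exons, none is listed in GENCODE M21, and their local shares lay between 0.00737% and 0.221%. The known junctions of Afp had a median of 68100 reads. Among the 9 Afp members, the junction over 7 exons had 12, 8, 122 and 17 reads, and KO replicate 1 alone was high.

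Pbrm1, a subunit of a chromatin remodelling complex, held members of a mixed kind. Its junctions over exons of 45 and 96 bases had 5, 14, 18 and 14 reads and 5, 17, 6 and 19 reads, with local shares of 35.2% and 47.0%. Both are listed, as is another over 2 exons. The members over 8 and 11 exons are not listed and had local shares of 4.67% and 11.8%.

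Collagen genes, fibrillar and other, carried many of the members that skip long runs of exons. Fibrillar collagen genes are built of many short exons that encode repeats of glycine and 2 further residues. Collagen genes held 31 members in 8 genes, which skipped a median of 24 exons, and none is listed in GENCODE M21. In 29 of the 31 the skipped length was a multiple of 3 and in 22 a multiple of 9. Among junctions that skip 10 or more exons, 92.9% of the 28 coding ones in collagen genes and 46.8% of the 154 in other genes kept the frame. The Col1a2 member over 42 exons and the Col3a1 member over 13 skip only exons of 45, 54, 99, 108 or 162 bases. Any run of such exons keeps the frame, so the share says little of these junctions in particular. Other runs of exons in the same genes were not compared. The ends of the skipped stretch resembled the joined ends, with at least 8 of 10 bases alike at either end, in 35.7% of the 28 collagen junctions and 7.36% of the 163 others with a sequence. For members that skip 1 exon this share was 1.83%, and the part of such likeness in the reads was not tested.

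The local shares of the collagen members ranged from 1.88% to 100%, with a median of 23.6%. The highest were 100% in Col7a1 and 84.6% in Col9a3, genes whose known junctions had a median of 1 and 2 reads. Those of Col1a2 ranged from 3.87% to 58.5%, and those of Col3a1 from 1.88% to 39.1%. Col1a2, the alpha 2 chain of type I collagen, had 29, 28, 19 and 31 reads on the junction over 25 exons shown above, with a local share of 58.5%. Several Col1a2 members share their downstream exon, so they are not independent of each other. Other members with the same end as the junction over 25 exons had 93, 57, 18 and 13 reads in total. These reads are not in its local share, which would be lower with them. Col3a1, the chain of type III collagen, had 22, 46, 37 and 120 reads on its junction over 13 exons. Another Col3a1 junction, over 12 exons, had 7, 10, 18 and 75 reads, and KO replicate 2 was the high library for both.

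Members over 10 or more exons were also found in large genes of other kinds, with local shares from 19.3% to 45.2% in the 5 named here. These 199 members lie in 154 genes, and 31 of them had 100 reads or more. Suz12, a subunit of the Polycomb complex that methylates histone H3, had 91, 147, 90 and 142 reads over 10 exons with a local share of 39.6%. Dync1h1, the heavy chain of cytoplasmic dynein, had 27, 71, 87 and 78 reads over 70 exons with a local share of 43.3%. At its downstream end 9 of 10 bases were alike, and the part of this likeness in the reads was not tested. Ubr4, a giant ubiquitin ligase, had 28, 49, 44 and 38 reads over 101 exons with a local share of 45.2%. Nup205, a scaffold protein of the nuclear pore, had 46, 95, 71 and 71 reads over 29 exons with a local share of 25.8%. Spna1, the erythroid alpha spectrin, had 40, 56, 27 and 18 reads over 42 exons. The level of Spna1 fell (log2 fold change -1.05, edgeR adjusted p = 0.00879), as did that of other red cell genes.

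The longest members spanned 476734 bases in Lrba, 394814 in Slit3, 342723 in Arid1b and 337724 in Robo1, and each skipped between 12 and 45 exons. Their reads were few, with 2, 10, 4 and 10 in Lrba, a gene of vesicle traffic, and 8, 5, 21 and 4 in Slit3, a guidance ligand. The shortest spanned 82 bases in Cuta, 146 in Josd2, 207 in Fdx1l and 225 in Dlk1. Cuta had 8, 15, 5 and 5 reads and Josd2, a deubiquitinase, had 4, 7, 4 and 2. Dlk1, a membrane protein of hepatoblasts whose transcript is known to be spliced in alternative forms, had 36, 26, 42 and 48 reads, with local shares from 27.6% to 62.1%. The junctions of Cuta, Josd2 and Dlk1 are listed in GENCODE M21, and the exons between their ends could not be counted.

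By role, members were found in each of the 6 gene lists used. Over the whole series 865 of the 15036 genes tested held a member, and the rule on reads favours abundant genes. In the list of RNA-binding and splicing genes, 21 of 176 genes held 29 members, of which 15 are listed and 19 skip 1 exon. The most read were in Prpf8, Ddx6 and Mbnl1. Of these 21 host genes 1 was lower and 0 were higher in KO, beside 9.43% lower and 11.4% higher of all genes and 19.7% and 9.71% of all host genes. The erythroid, membrane skeleton and heme list had 38 members in 22 of 53 genes, with a median local share of 2.22%. Beside Epb4.1 and Ank1, Urod, an enzyme of heme synthesis, had 34, 79, 43 and 37 reads on a junction without 63 bases and a local share of 1.91%. Kel, the Kell blood group protein, held 4 members with local shares from 0.863% to 5.32%.

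The cell cycle, replication and mitosis list held 33 members in 26 genes. The lists were drawn in part by the first letters of symbols, so this one takes in Cdc42bpa, Mcm3ap, Kif1b, Kif21b and Ccnl1, and the cytoskeleton list takes in Map4k3, whose roles lie elsewhere or only partly there. Top2a, the topoisomerase of dividing cells, had 18, 115, 51 and 55 reads over 5 exons and 3 longer members that skip up to 20 exons. Mki67, a marker of proliferation, had 51, 105, 37 and 23 reads without its exon of 960 bases, with a local share of 2.94%. Cytoskeleton, muscle and motor genes, among which the Kif genes count under both lists, held 35 members with a median local share of 43.9%, the highest of the lists. Myo9a, an unconventional myosin, had 28, 33, 15 and 32 reads without 54 bases and a local share of 93.9%. Eif4h, a factor of translation initiation outside these lists, had 33, 62, 38 and 30 reads without an exon of 60 bases, and its local share of 21.2%, 22.4%, 16.5% and 15.2% did not overlap between the groups, as in 32.4% of all members. Its usage did not pass the test (log2 fold change -0.55 ± 0.46 SE, edgeR adjusted p = 1.00).

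In the hepatocyte and plasma protein list, which takes in Fgfr1op2 by its first letters alone, 30 members in 11 genes had a median local share of 0.0609%. Plg, for plasminogen, had 4, 14, 34 and 26 reads over 2 exons. Fgfr1op2 had 16, 37, 17 and 2 reads without an exon of 114 bases. The p53 list had 5 members in Mdm2, Mdm4, Aen and Ddb2, all over 1 exon. Mdm2, which targets p53 for degradation, had 19, 25, 29 and 17 reads without an exon of 85 bases and a local share of 57.0%. Mdm4, its partner, had 17, 23, 17 and 15 reads without an exon of 78 bases and a local share of 78.3%. Aen, a nuclease induced by p53, had 6, 21, 4 and 5 reads without 601 bases. Mdm2 and Aen rose at the gene level in KO (edgeR adjusted p = 0.0235 and 0.0348). None of the members of any list was called for usage.

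The host genes were abundant genes, as the rule on reads favours. Their median was 86.5 CPM against 19.8 CPM over all genes tested, and 779 of 865 lay above the median gene. In the edgeR test 254 of the 865 host genes changed (29.4%), beside 20.8% of all 15036 genes. Higher in KO were 84 (9.71%, beside 11.4% of all genes), and lower were 170 (19.7%, beside 9.43%). Of erythroid hosts 13 of 22 were lower and 2 higher, and of the hosts in the cell cycle list, with the reservation on its genes given above, 14 of 26 were lower and 1 higher. The erythroid markers given above were lower in the same KO libraries, and their part in these counts was not tested.

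The minimum of 2 reads sets the number of members. At a minimum of 1 read there would be 1764, and at 3 reads 766. Just inside, 310 members had 2 reads in their lowest library and a median of 17.5 reads in total. Just outside, 688 junctions had 1 read in their lowest library and a median of 10 reads. Fam49b, for example, had 1, 21, 20 and 17 reads and was left out. Among 561 junctions with at least 2 reads in 3 libraries and 0 in the other, the missing library was WT replicate 1, the shallowest, for 288.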

How the data were processed

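The authors deposited, per library, a table of raw read counts per splice junction marked known or putative, and a table of RefSeq transcripts. Per the file headers, the latter holds read counts of primary alignments with mapping quality of at least 10, RPKM values and reads per nucleotide (a coverage signal); these deposited RPKM and signal values entered no test. No source used here names the aligner, build or junction rules. Known junction reads ranged from 4875332 to 8624429 per library.

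Members and gene lists were chosen with earlier results of these data known. Usage was tested with diffSpliceDGE of edgeR 4.0.16 (R 4.3.3) on all junctions with at least 10 reads in total, levels with its quasi-likelihood test, with TMM scaling, the default count filter and Benjamini-Hochberg adjustment over all features. DESeq2 1.42.0 was an alternative. Standard errors are the absolute log2 fold change over the square root of F. Introns were matched to GENCODE M21 (GRCm38) by length within the gene, with no conversion of coordinates. Scripts were tested on simulated data. Named were the 12 members with most reads, the 6 with the highest local share, the 4 longest and 4 shortest, up to 3 per list and the 5 genes with most members. Other members (such as Neb, Flna, Fn1 at 273 bases, Mbnl1 beyond its first, Spna2, Cpeb4, Atm, Eif4h, Suz12 and Ubr4) were chosen after their values were seen. No slide is given per library, so no value within a batch can be had.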

Additional observations from a re-analysis of the deposited data

How the results depend on the processing

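The count of members called for usage was 0 under the filters, size factors and groupings tried and with the replicate block by the numbers in the file names; it was 1 with the likelihood ratio test and 0 to 1 when a library was left out (1, Flna, without WT replicate 2). Members called for level numbered 2, against 4 with the DESeq2 Wald test (Cd47, Fn1, Rrm1 and Tmem14c), 9 without a filter, 10 with the replicate block and 4 to 9 when a library was left out (9 without WT replicate 2, 5 without either WT replicate 1 or KO replicate 1, and 4 if KO replicate 2 was omitted). Drosha and Mbnl1 were among those called without a filter and with the block. Host genes called numbered 254, against 342 with the block and 84 to 224 when a library was left out (126 without WT replicate 1, 97 without WT replicate 2, 84 without KO replicate 2). The file-name numbers are not in the labels, the deviations of same-numbered libraries correlated at 0.19 over genes and -0.03 over junctions, and block results are given here only. The number of members was 1764, 481 and 252 at minimums of 1, 5 and 10 reads. Small usage values that passed no test changed sign in 8 junctions. Against junctions of the same start, Picalm moved to -0.0066, Prpf8 to 0.057 and the second Fn1 junction to -0.34. Against those of the same end, Faf1 moved to 0.021, Prpf8 to 0.023 and Ddx6 to -0.028. Leaving out a library gave -0.045 to 0.14 for Picalm, -0.048 to 0.80 for Lamp1, -0.46 to 0.092 for Faf1, -0.41 to 0.10 for Prpf8, -0.012 to 0.42 for Tpd52l2, -0.13 to 0.20 for Ddx6 and -0.52 to 0.028 for Prmt1. The cause was not tested. The KO to WT ratios of summed member reads (0.818) and of pooled share (0.803) stayed below 1 in the alternatives run; without Drosha, an alternative chosen after seeing the data, they were 0.945 and 0.922. Depth limits single junctions: the median member had 34 reads over 4 libraries.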

Other observations

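Putative junctions with many reads in a single library fell outside the rule, and the following were chosen after their values were seen. A Speer6-ps1 junction had 103005, 9, 0 and 0 reads, a Speer2 junction 4383, 0, 0 and 0, and a Speer3 junction 4305, 1, 0 and 1, all high in WT replicate 1 alone. A junction in Card10, a scaffold of NF-kappaB signalling, had 0, 0, 933 and 0 reads, high in KO replicate 1 alone. Reads on putative junctions of Speer genes made up 111695 of the 152103 putative reads of WT replicate 1, against 13, 1 and 1 in the other libraries. The members held 47.9% of the putative reads of WT replicate 1 without Speer genes, and between 42.5% and 46.1% in the other libraries.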
